A study of Mus musculus with 19 samples.

Results

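The mitochondrial ribosomal protein genes were followed as a module across CD44high and CD44low regulatory T cells (Tregs) from uninjured and burn-injured mice. They were chosen by name alone, as every gene of the count table whose symbol is Mrpl or Mrps followed by a number, which gave 78 of the 24982 genes listed. By the unified naming of ribosomal proteins, 51 of them encode proteins of the large subunit and 26 proteins of the small subunit, while the place of Mrps36 is not settled. Of these, 46 have a counterpart in bacterial ribosomes and 31 are specific to mitochondria. All 78 were detected in every library and passed the filter on low counts, as did 11464 genes in all.

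Mitochondria keep their own ribosome, which translates the few messages of the mitochondrial genome, all of them for subunits of the respiratory chain and ATP synthase. Its ribosomal RNAs come from mitochondrial DNA, whereas its proteins are encoded in the nucleus, made in the cytosol and imported. The large subunit holds the centre that joins amino acids and the tunnel through which the new chain leaves toward the inner membrane, and the small subunit reads the message. In T cells, mitochondrial translation is known to be needed for respiratory capacity after activation, and Tregs are known to rely on respiration.

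The cells were sorted as CD4+ FoxP3-GFP+ cells from axillary, brachial and inguinal lymph nodes of Foxp3DTR mice, a strain in which a diphtheria toxin receptor fused to GFP is expressed from the Foxp3 locus, so that all 4 groups carry this allele and GFP marks the Tregs. Mice were 8 to 16 weeks old, and the injury was a burn of 20% of the body surface made with water at 90 °C for 9 seconds under anesthesia, with sham treatment in the uninjured mice. Samples of 50000 cells were sorted 7 days after injury, giving 4 libraries of CD44high and 5 of CD44low Tregs from uninjured mice, and 4 of CD44high and 6 of CD44low Tregs from injured mice. The number of mice behind a sample is not stated, so p-values measure the spread between these samples, and 3 libraries of injured CD44low Tregs (1_2, 4_2 and 5_2) carry a second number whose meaning the labels do not give.

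Library totals lay between 5582234 and 9433610 counts, and no pair of libraries of a group agreed within sampling noise. The sort was checked on its own marker: Cd44 was higher in CD44high than in CD44low Tregs by 2.16 ± 0.12 (SE) on the log2 scale in uninjured mice. All 5 genes of a cell-division list rose in CD44high Tregs, and their summed level was 392 to 512 CPM in uninjured CD44high and 12.6 to 24.4 CPM in uninjured CD44low libraries. The Treg list summed to 3139.5 to 4377 CPM, but it includes the general T cell genes Cd3e and Cd4, and Foxp3 alone had group means of 70.7 to 115 CPM. Markers of other cells stayed low beside that sum. The B cell list summed to at most 203 CPM and the macrophage and dendritic cell list to at most 228 CPM. The neutrophil list summed to at most 28.9 CPM and the CD8 and NK list to 41.7 to 67.3 CPM. Some of these markers moved with the CD44 subset: in uninjured mice all 4 macrophage and dendritic cell genes were higher in CD44high Tregs, with sums of 61.9 to 137 CPM against 19.8 to 38.6 CPM in CD44low Tregs, as were Cd79b of the B cell list (0.84 ± 0.17, SE) and Col1a1 of the stroma list (4.92 ± 0.86), whose list summed to at most 3.93 CPM. In injured mice 1 macrophage gene, Lyz2, and Col1a1 were higher, and the part of these cells in the subset differences was not tested. In such bulk libraries, fewer cells that express a gene and less of its RNA per cell cannot be told apart.

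Members were modestly abundant and reproducible. Their median level was 45.3 CPM (library-scaled counts with TMM factors) against 34.6 over all genes tested, and their median biological coefficient of variation was 0.156 against 0.181. Per kilobase of transcript and averaged over all libraries, Mrpl33 (140 CPM per kb), Mrpl52 (121), Mrpl42 (105) and Mrpl4 (78.3) stood highest. At the other end were Mrpl47 (3.25 CPM per kb), Mrps36 (4.51), Mrps25 (6.89) and Mrps5 (7.68), so that levels per kilobase spanned a wide range also without Mrps36, whose place in the particle is not settled. These levels depend on the transcript chosen for each gene, which was long for Mrpl47, Mrps25 and Mrps5 (3364, 6073 and 4481 bases). Single-library counts ran from 11 for Mrps36 to 1157 for Mrpl4.

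The upstream promoter sequences of 4 members are shown as examples, and no result rests on these sequences. Mrpl30 fell and Mrpl27 rose in CD44high Tregs, Mrpl33 had the highest level per kilobase, and Mrpl10 rose after injury in CD44low Tregs. Each is the 150 bases before the gene's RefSeq start in GRCm38.p6, 5′ to 3′ on the gene's strand (the plus strand in all 4), at chr1:37890327-37890476 for Mrpl30, chr11:94653641-94653790 for Mrpl27, chr5:31613801-31613950 for Mrpl33 and chr11:97041432-97041581 for Mrpl10. Capitals mark matches, on either strand, to the NRF1 motif GCGCATGC or the ETS motif CCGGAAG, which is bound by GABP among other factors. The last 3 capitals of Mrpl33 begin an ETS match that runs past the start, where the sequence is not printed.
Mrpl30: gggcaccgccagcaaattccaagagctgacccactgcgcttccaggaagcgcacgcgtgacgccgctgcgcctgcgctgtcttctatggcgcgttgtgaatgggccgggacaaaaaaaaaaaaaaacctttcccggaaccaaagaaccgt
Mrpl27: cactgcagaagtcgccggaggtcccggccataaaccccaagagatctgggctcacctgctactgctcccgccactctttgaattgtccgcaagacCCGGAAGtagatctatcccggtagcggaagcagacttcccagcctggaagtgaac
Mrpl33: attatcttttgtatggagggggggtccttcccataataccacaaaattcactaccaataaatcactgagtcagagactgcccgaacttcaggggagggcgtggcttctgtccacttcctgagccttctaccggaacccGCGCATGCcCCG
Mrpl10: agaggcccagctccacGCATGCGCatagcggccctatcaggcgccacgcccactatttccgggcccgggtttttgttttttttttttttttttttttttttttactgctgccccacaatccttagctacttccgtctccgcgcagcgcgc

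Promoter windows of 250 bases before to 50 bases after the start were found for 69 of the 78 members, and a gene with several windows was counted where any of them held the motif. The ETS motif CCGGAAG was in 37.7% of them, against 12.8% of the 18203 listed genes that have a window. The YY1 motif AAGATGGC was in 17.4% against 3.58%, and the NRF1 motif GCGCATGC in 11.6% against 3.96%. The E-box CACGTG was in 7.25% against 9.12%, the TATA motif TATAAA in 7.25% against 14.2%, and 26 members held none of the 5 motifs, Mrpl30 among them. Mrps24 and Mrpl45, whose rise after injury in CD44low Tregs held in all 29 alternative settings, had no NRF1 or ETS match in the first window listed for each. Among other members that rose there, Mrps18c and Mrps21 had an ETS match and Mrpl10 an NRF1 match, while Mrps15 and Mrpl28 had neither. A link between motifs and changes was not tested. These counts and matches describe letters and no binding was measured.

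As a module, the members took overlapping shares of counts in the Treg subsets of uninjured mice, and their mean share was larger in both subsets of injured mice. In uninjured CD44high Tregs, they made up 0.331%, 0.323%, 0.359% and 0.345% of all counts (mean 0.340% ± 0.0158, SD, n = 4). Uninjured CD44low Tregs gave 0.295%, 0.336%, 0.330%, 0.354% and 0.347% (0.332% ± 0.0230, SD, n = 5), which overlap the CD44high values. In injured CD44high Tregs the share was 0.445%, 0.374%, 0.377% and 0.414% (0.403% ± 0.0337, SD, n = 4), above every uninjured CD44high library. Injured CD44low Tregs ranged from 0.327% in library 5_2 through a median of 0.379% to 0.486% in library 1_2 (0.388% ± 0.0528, SD, n = 6), so this group had the widest spread and overlapped the uninjured libraries. The share is a description, and its tests are those of the single genes.

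**Figure D1:**
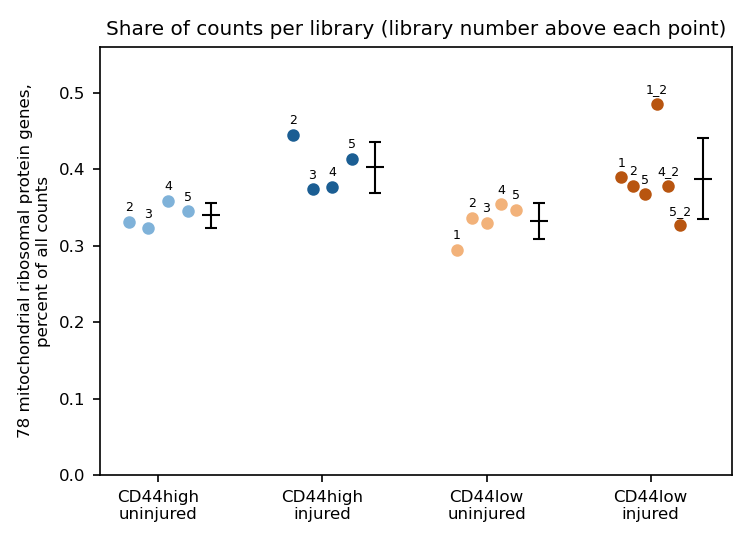
Share of all counts (percent) taken by the 78 mitochondrial ribosomal protein genes in each of 19 libraries, with the mean and SD of each group at its right. The 4 injured CD44high libraries lie at 0.374% to 0.445%, above the uninjured CD44high libraries at 0.323% to 0.359%, and library 1_2 of injured CD44low Tregs stands highest at 0.486%.

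Libraries differed in how many members they placed high. In library 1_2 of injured CD44low Tregs, 76 of 78 members lay above their own mean over the 19 libraries, and in injured CD44high library 2, 67 did. Only 13 did in injured CD44low library 5_2 and 10 in uninjured CD44low library 1. Over all genes tested, 47.5% to 53.3% lay above their mean in any library. In each group the large-subunit genes took the larger share, with 0.235% ± 0.0113 (SD, n = 4) against 0.104% ± 0.00508 for the small subunit in uninjured CD44high Tregs and 0.278% ± 0.0226 against 0.124% ± 0.0112 in injured CD44high Tregs. Libraries 1_2 and 2 also stood apart in how their levels moved with transcript length: the slope of log2 level on log2 length was -0.19 and -0.27 in them, 0.15 in library 5_2 and 0.19 in uninjured CD44low library 1. Members are short, with a median transcript of 1302 bases against 2924.5 bases over all genes tested, and results after injury are therefore given below with and without these libraries and with the length trend taken out.

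**Figure D2:**
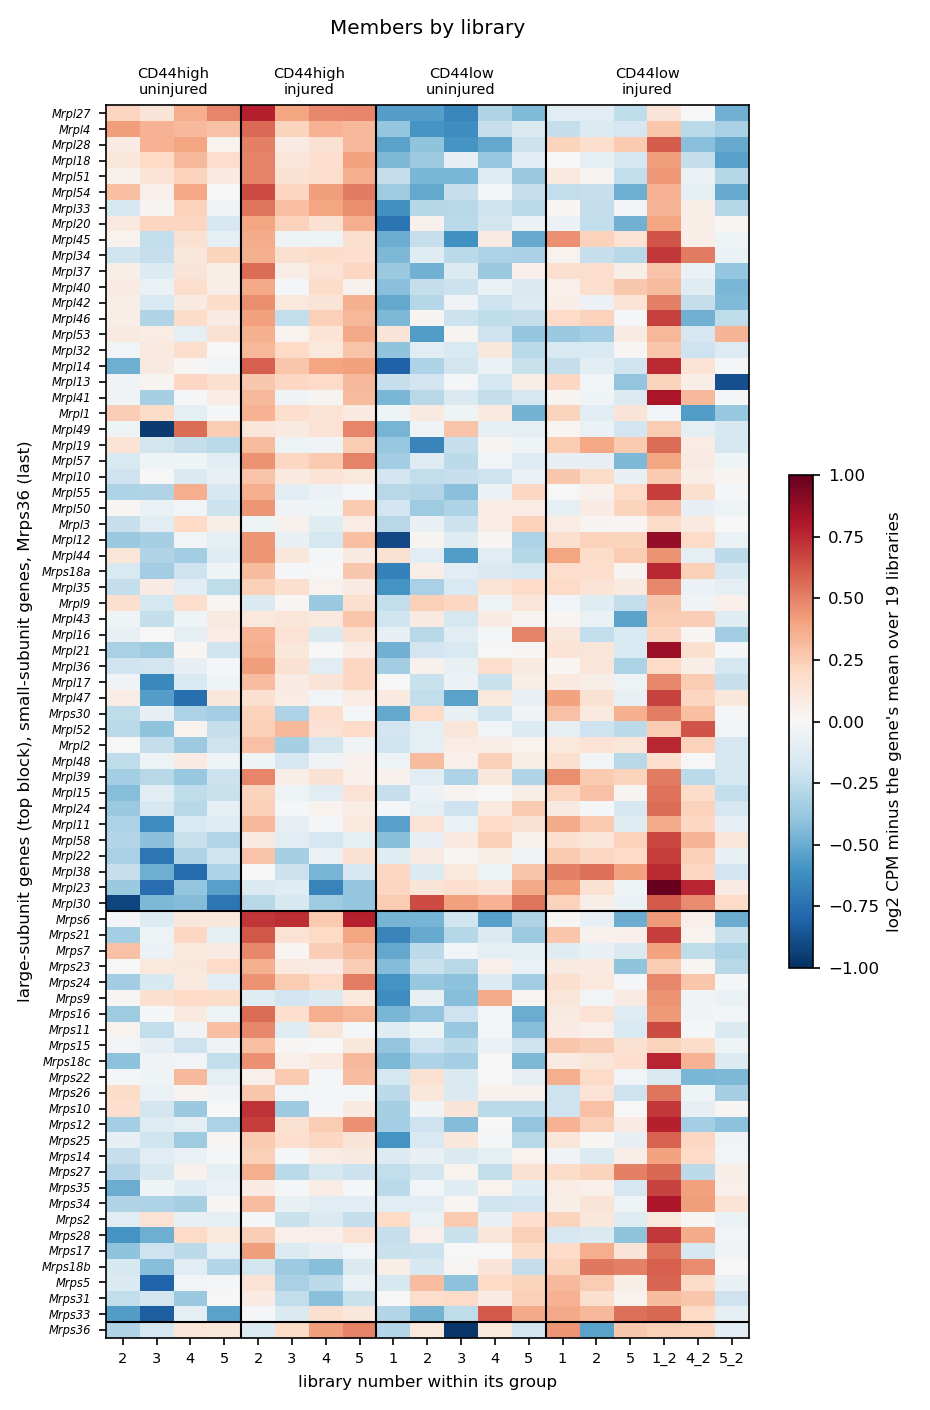
Log2 CPM of the 78 members (rows, large subunit above small subunit with Mrps36 last, and ordered by the CD44high against CD44low difference in uninjured mice) in the 19 libraries (columns), each as the difference from the gene's mean over all libraries. By log2 CPM with a prior count of 2, which the drawn values do not use, library 1_2 of injured CD44low Tregs is above the mean in 76 rows. Mrpl30 and Mrpl27 run opposite ways between the CD44 subsets.

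The first question was how CD44high Tregs differ from CD44low Tregs in uninjured mice, and most mitochondrial ribosomal protein genes differed little. By edgeR's quasi-likelihood test at an adjusted p under 0.05, 8 members were higher in CD44high Tregs, where 24.7% of all genes tested were, and 3 were lower, where 21.3% of all genes were. The log2 fold change was above 0 in 46 of 78 members and in 50.6% of all genes. The median fold change of the members was 0.06 on the log2 scale and that of all genes 0.01, and the median size of change, whatever its direction, was 0.19 in members against 0.44 in all genes. One member changed by 2-fold or more, against 22.2% of all genes.

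Mrpl30, a large-subunit protein with a bacterial counterpart, showed that largest change. Its level in uninjured CD44high Tregs was 30.1, 41.7, 42.2 and 34.5 CPM, and in CD44low Tregs it was 68.2, 89.5, 75.9, 72.6 and 82.5 CPM. The groups did not overlap, and the log2 fold change was -1.07 ± 0.14 (SE, adjusted p = 1.75e-06). Mrpl38, a mitochondria-specific large-subunit protein, and Mrpl23, which in ribosomes lies at the exit of the tunnel, were also lower, with log2 fold changes of -0.52 ± 0.17 and -0.71 ± 0.24 (SE, adjusted p = 0.0127 and 0.0164).

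Among the members that were higher in CD44high Tregs, Mrpl27 and Mrpl4 came first. Mrpl27, whose bacterial counterpart reaches into the peptidyl transferase centre, was at 31.0, 29.3, 34.4 and 37.5 CPM in CD44high and at 18.3, 18.3, 17.0, 21.7 and 19.8 CPM in CD44low Tregs. Every CD44high library was above every CD44low library, with a log2 fold change of 0.80 ± 0.14 (SE, adjusted p = 7.30e-05). Mrpl4, which lines the exit tunnel in ribosomes, was at 130.9, 124, 123 and 119.8 CPM in CD44high and at 74.9, 64.9, 63.5, 83.4 and 88.3 CPM in CD44low Tregs. These groups did not overlap either, and the log2 fold change was 0.73 ± 0.13 (SE, adjusted p = 4.73e-05). Mrpl28 was higher by 0.67 ± 0.17 (SE, adjusted p = 0.00304). The other called members, Mrpl51, Mrpl18, Mrpl54, Mrpl33 and Mrps6, were higher by 0.34 to 0.47 on the log2 scale, and of all 8 only Mrps6 belongs to the small subunit.

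The calls for Mrpl30, Mrpl23, Mrpl27, Mrpl28 and Mrpl4 held in all 29 alternative settings, while each of the other 6 lost its call in 1 to 9 of them. Leaving out uninjured CD44high library 4 gave 5 members higher, leaving out uninjured CD44low library 1 gave 6 lower, and taking out each library's length trend, which moved the median of all genes to -0.16, gave 5 higher and 20 lower. With that trend taken out the members' median was -0.13, so members moved along with all genes. These counts stand without a share of all genes and describe only how the calls moved with the fit.

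In injured mice, CD44high and CD44low Tregs differed in 13 members, again in both directions. By edgeR, 7 were higher in CD44high Tregs, against 20.1% of all genes, and 6 were lower, against 17.2% of all genes. The log2 fold change was above 0 in 42 of 78 members and in 50.0% of all genes, with a median of 0.03 in members. Of the 7 higher members, Mrpl27 changed by 0.67 ± 0.13 (SE, adjusted p = 0.000341) and Mrpl4 by 0.50 ± 0.12 (adjusted p = 0.00189), although the Mrpl4 level of injured CD44low library 1_2 lay within the CD44high range. Mrps6, a small-subunit protein, was higher by 0.70 ± 0.15 (SE, adjusted p = 0.000771) and Mrpl54 by 0.63 ± 0.15 (adjusted p = 0.00175), while Mrpl33, Mrpl57 and Mrpl18 were higher by 0.37 to 0.44 on the log2 scale.

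Mrps18b, one of 3 mammalian relatives of bacterial S18 and a small-subunit protein, was the lower member of smallest p in injured mice. It was at 16.9, 14.9, 14.2 and 17.3 CPM in injured CD44high Tregs and ran from 19.1 through a median of 26.9 to 29.0 CPM in injured CD44low Tregs. These groups did not overlap, and the log2 fold change was -0.68 ± 0.15 (SE, adjusted p = 0.000898), whereas in uninjured mice it was -0.21 ± 0.16 (adjusted p = 0.271). Mrpl30 was at 47.1, 51.0, 44.6 and 43.5 CPM in injured CD44high Tregs, below the 54.5 to 87.4 CPM of injured CD44low Tregs, with a log2 fold change of -0.56 ± 0.13 (SE, adjusted p = 0.00216). Mrpl38 and Mrpl23 were lower by -0.61 ± 0.16 and -0.75 ± 0.22 (SE). The remaining 2 were Mrpl58, a peptidyl-tRNA hydrolase built into the large subunit, at -0.35 ± 0.13 (adjusted p = 0.0339), and Mrps31, of the small subunit, at -0.36 ± 0.14 (adjusted p = 0.0442). The calls for Mrpl27, Mrpl30, Mrpl33, Mrpl38, Mrpl4, Mrpl54, Mrps18b and Mrps6 held in all 29 alternative settings. Without injured CD44low library 1_2, 15 members were higher, without injured CD44high library 2, 9 were lower, without all 3 libraries that carry a second number, 11 were higher and 3 lower, and with the length trend taken out, 5 were higher and 17 lower. Without those 3 libraries, 18.2% of all genes were higher and 12.7% were lower. The other counts stand without a share of all genes and describe only how the calls moved with the fit.

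The subset differences were then set side by side in uninjured and injured mice, which share no library. The log2 fold changes of the 78 members had the same sign in 60 members and correlated across genes with Pearson's r of 0.80 and Spearman's rho of 0.76, against 0.89 and 0.85 over all genes, where genes are not independent replicates. Called in both, in the same direction, were 9 of 78 members, against 30.4% of all genes, namely Mrpl27, Mrpl4, Mrpl18, Mrpl54, Mrpl33, Mrps6, Mrpl30, Mrpl38 and Mrpl23. A direct test of whether the CD44 difference changed with injury (the interaction in edgeR) called no member higher or lower, against 0.192% and 0.454% of all genes. At an unadjusted p under 0.05 it gave 1 higher and 2 lower, against 3.95% and 6.93% of all genes, and DESeq2 called none, against 0.506% and 1.39%. The 2 members of smallest p were Mrpl30, whose difference was smaller in injured mice by 0.51 ± 0.19 (SE, adjusted p = 0.291), and Mrps18b, whose difference was larger (-0.46 ± 0.21, adjusted p = 0.429). Without the 3 libraries that carry a second number, Mrpl30 was called (adjusted p = 0.0426).

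**Figure D3:**
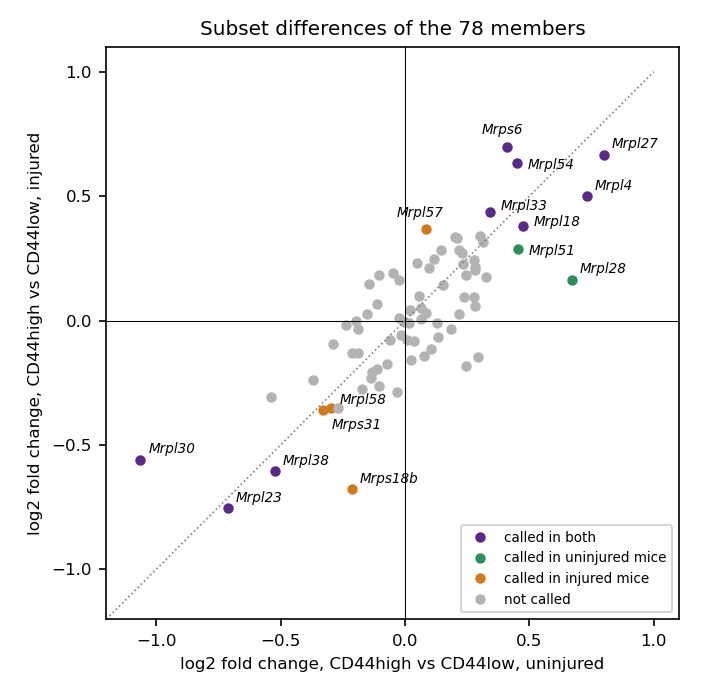
Log2 fold change of CD44high against CD44low Tregs for each of the 78 members in uninjured mice (x axis) and injured mice (y axis), with the dotted line marking equal values and colours marking the calls at an adjusted p under 0.05. The 9 members called in both lie in the upper right or lower left, with Mrpl30 at -1.07 and -0.56, and most other members lie near 0.

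Cytosolic ribosomal protein genes build the ribosome of the main cell body. In uninjured mice, 74 of 76 tested were lower in CD44high Tregs, with a median log2 fold change of -1.02, and in injured mice 51 of 76 were lower, with a median of -0.61. Nuclear-encoded respiratory chain genes, whose partners the mitochondrial ribosome makes, gave 12 higher and 3 lower of 76 in uninjured mice and 15 higher and 1 lower in injured mice, with medians of 0.14 and 0.17. The difference between these families was not tested.

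The lists for other parts of the mitochondrial translation machinery are small, and their counts stand beside 24.7% of all genes higher and 21.3% lower in uninjured mice and 20.1% and 17.2% in injured mice. Of the 5 other mitochondrial ribosome subunits, which have names of a different kind, Aurkaip1 was higher (0.33 ± 0.12, SE) and Chchd1 lower (-0.51 ± 0.19) in uninjured CD44high Tregs, and Ptcd3 was lower in injured mice (-0.36 ± 0.14). Among 25 assembly genes, 2 were higher and 7 lower in uninjured CD44high Tregs, led by the helicase gene Ddx28 (0.71 ± 0.17, SE), Mettl15 (0.68 ± 0.25), the rRNA methyltransferase gene Mrm1 (-1.11 ± 0.16) and the GTPase gene Mtg1 (-0.89 ± 0.19). In injured mice 1 was higher and 4 lower. Of 15 translation factors, Lrpprc, which stabilizes mitochondrial messages, was lower by -0.89 ± 0.17 in uninjured and by -0.46 ± 0.16 in injured mice, and Taco1, an activator of Cox1 translation, was higher in injured mice (0.72 ± 0.29). Of 20 genes for charging mitochondrial tRNAs, 2 were higher and 5 lower in uninjured mice and 2 were higher and 4 lower in injured mice, with Ears2 at -1.10 ± 0.17 (SE) in uninjured mice. Of 10 genes for mitochondrial DNA upkeep and transcription, 2 were higher and 3 lower in uninjured mice, with Mgme1 at 0.90 ± 0.23 and the polymerase gene Polg at -0.68 ± 0.15, and 1 was higher and 3 lower in injured mice.

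Of 8 tested regulators of mitochondrial gene programmes, 1 was higher and 3 were lower in CD44high Tregs of both uninjured and injured mice. Myc was lower by -1.42 ± 0.10 (SE) in uninjured and -1.25 ± 0.10 in injured mice, and Pprc1, a coactivator of the PGC-1 family, by -1.51 ± 0.24 and -1.22 ± 0.23. Gabpb1, a subunit of GABP, was higher by 0.26 ± 0.10 in uninjured and 0.25 ± 0.09 in injured mice. Nrf1 and Gabpa, which encode the factors named for the motifs above, had adjusted p of 0.938 and 0.758 in uninjured mice.

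The second question was how Tregs differ 7 days after injury, and here the members leaned one way, each by little. In CD44high Tregs, 72 of 78 members had a log2 fold change above 0 in injured against uninjured mice, where 47.0% of all genes did, with a median of 0.23 in members and -0.02 over all genes. Still, edgeR called no member higher, against 1.06% of all genes, and none lower, against 1.33%. At an unadjusted p under 0.05, 21 members were higher, against 6.81% of all genes, and none was lower, against 8.33%. DESeq2 called 2 members higher, Mrps24 and Mrps6, against 1.68% of all genes, and none lower, against 2.47%. In 23 members every injured library was above every uninjured library, where 5.91% of all genes did so, and in no member was every injured library below, against 7.34% of all genes.

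Mrps6 and Mrps24 had the smallest p in CD44high Tregs. Mrps6 went from 49.7, 45.8, 54.5 and 54.4 CPM in uninjured to 82.9, 84.0, 60.3 and 86.2 CPM in injured CD44high Tregs. The groups did not overlap and the log2 fold change was 0.61 ± 0.17 (SE), short of the threshold with an adjusted p of 0.0523. Mrps24, the counterpart of the bacterial small-subunit protein S3, was at 47.2, 53.7, 64.2 and 55.4 CPM in uninjured and at 81.8, 71.5, 68.4 and 85.4 CPM in injured CD44high Tregs. Its groups did not overlap, with a log2 fold change of 0.48 ± 0.13 (SE, adjusted p = 0.061). Mrps12, a decoding-centre protein of the small subunit, had a change of similar size, 0.62 ± 0.20 (SE, adjusted p = 0.101), and is named after its values were seen. With the 2 CD44high groups fitted alone, 7 members were called higher, as they were when the 3 libraries with a second number were left out, where 2.503% and 2.32% of all genes were called higher, and with single libraries left out the count ran from 0 to 3.

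In CD44low Tregs, 71 of 78 members had a log2 fold change above 0 after injury, against 50.9% of all genes, with a median of 0.27 in members and 0.01 over all genes. By edgeR, 8 members rose, where 4.24% of all genes did, and none fell, where 3.36% of all genes did. At an unadjusted p under 0.05, 34 members were higher, against 14.5% of all genes, and none lower, against 11.6%. DESeq2 called 19 members higher, against 8.05% of all genes, and none lower, against 4.61%. Groups that did not overlap were found for Mrps15, Mrps24 and Mrpl41 (the last named after its values were seen), all with every injured library higher, against 2.39% of all genes, and for no member with every injured library lower, against 2.29%.

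The 8 that rose were 4 of the large and 4 of the small subunit. Mrps24 was at 39.7, 46.2, 45.1, 54.6 and 47.3 CPM in uninjured CD44low Tregs and ran from 59.1 through a median of 65.7 to 83.8 CPM in injured ones. Its groups did not overlap, and the log2 fold change was 0.54 ± 0.12 (SE, adjusted p = 0.00823). Mrpl45, which holds the large subunit against the inner membrane near the tunnel exit, was at 31.3, 37.5, 29.0, 46.7 and 31.1 CPM in uninjured and ran from 42.8 through 50.1 to 68.1 CPM in injured CD44low Tregs. Here uninjured library 4 fell within the injured range, and the log2 fold change was 0.59 ± 0.14 (SE, adjusted p = 0.0163). Mrps15, an early-binding small-subunit protein in bacteria, was at 42.8, 48.7, 47.0, 54.0 and 48.8 CPM in uninjured and ran from 54.3 through 64.8 to 68.3 CPM in injured CD44low Tregs. These ranges only just missed each other, and the log2 fold change was 0.40 ± 0.10 (SE, adjusted p = 0.017).

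Of the other 5, Mrps18c, the closest relative of bacterial S18, rose by 0.55 ± 0.14 (SE, adjusted p = 0.0222), and Mrps21, also of the small subunit, by 0.55 ± 0.16 (adjusted p = 0.0327). Mrpl10, the base of the stalk that recruits translation factors, rose by 0.31 ± 0.09 (SE, adjusted p = 0.0317), Mrpl28 by 0.55 ± 0.16 (adjusted p = 0.0361) and Mrpl19 by 0.48 ± 0.14 (adjusted p = 0.0404). Mrps24 and Mrpl45 kept their calls in all 29 alternative settings. The number that rose rested on single libraries: it was 3 without injured library 1_2 (Mrpl45, Mrps15 and Mrps24), 4 without injured library 1, 5 without uninjured library 1, 14 without injured CD44high library 2 and 26 without injured library 5_2, while the 2 CD44low groups fitted alone gave 2. The share of all genes called higher moved with it, at 2.64% without injured library 1_2, 3.16% without injured library 1, 2.93% without uninjured library 1, 6.68% without injured CD44high library 2, 9.79% without injured library 5_2 and 1.98% with the groups alone. The members' median was 0.16 without library 1_2 and 0.35 at the highest of these fits.

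**Figure D4:**
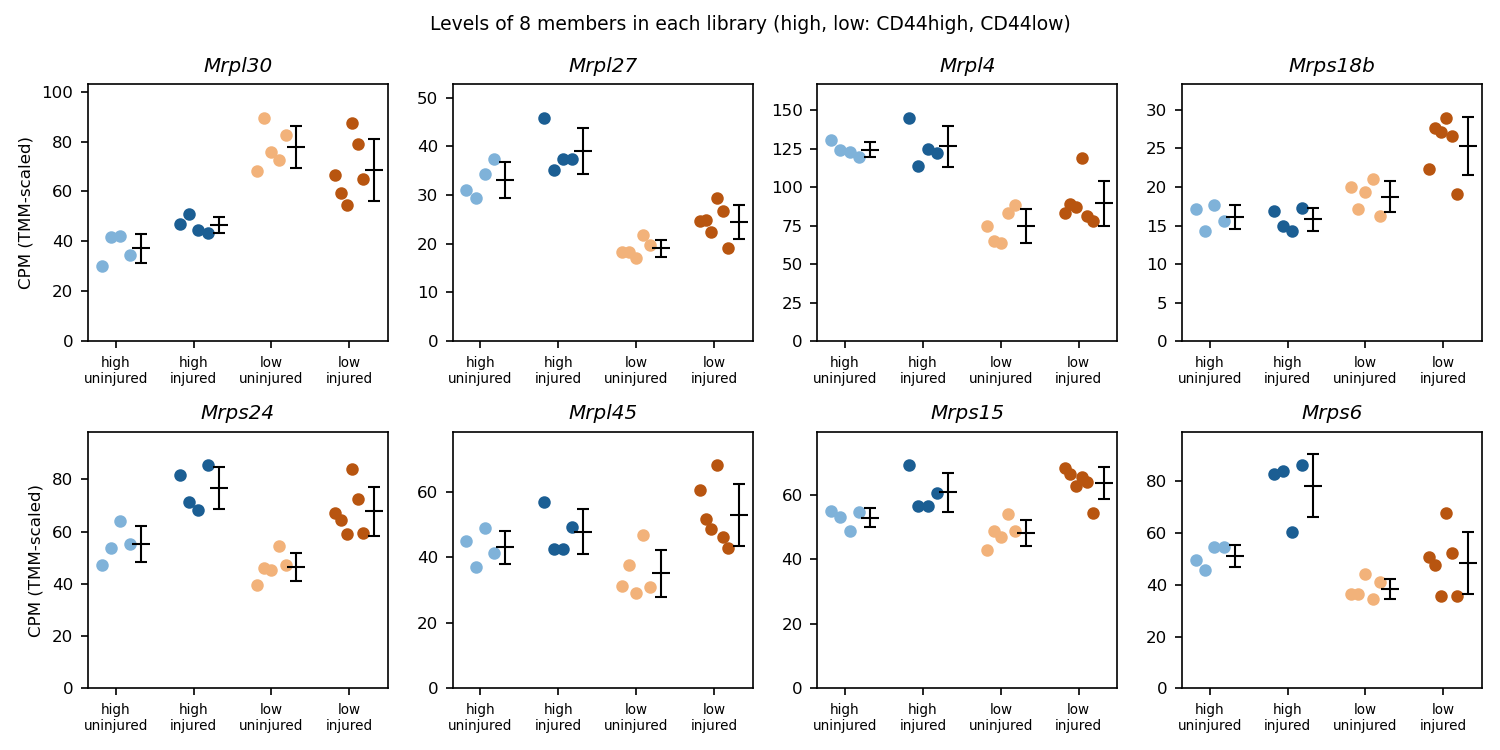
CPM (TMM-scaled) of 8 members in each library of the 4 groups, with the mean and SD of each group at its right. Mrpl30 and Mrpl27 separate CD44high from CD44low libraries in uninjured and in injured mice, Mrpl4 in uninjured and Mrps18b in injured mice, and Mrps24 is higher in every injured than in every uninjured library within each subset.

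The 2 injury comparisons share no library, and 67 members had a positive log2 fold change in both. Across the 78 members the fold changes correlated with Pearson's r of 0.38 and Spearman's rho of 0.36, against 0.26 and 0.30 over all genes. Respiratory chain genes gave medians of 0.24 in CD44high and 0.21 in CD44low Tregs, with 68 and 73 of 76 positive. Of them 2 and 6 were called higher, against 1.06% and 4.24% of all genes. None was called lower in either, against 1.33% and 3.36%. Cytosolic ribosomal protein genes had medians of 0.28 and -0.14, with 76 and 11 of 76 positive and none called by edgeR in either direction. Their unadjusted p was under 0.05 for 5 genes in CD44high and 1 gene in CD44low Tregs, all of them higher, against 6.81% and 14.5% of all genes. A lean upward after injury was thus not particular to the members. Respiratory chain genes showed it in both subsets and cytosolic ribosomal protein genes in CD44high Tregs.

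The other lists are small and held few calls after injury. Of all genes, 1.06% were called higher and 1.33% lower in CD44high Tregs, and 4.24% and 3.36% in CD44low Tregs. Gadd45gip1, a large-subunit protein named for another role, rose in CD44low Tregs by 0.45 ± 0.12 (SE, adjusted p = 0.0246), Slirp, the partner of Lrpprc, rose in CD44high Tregs by 0.61 ± 0.16 (adjusted p = 0.0484), and Myc rose in CD44high Tregs by 0.45 ± 0.11 (adjusted p = 0.0217). No gene of the 25 for assembly, 20 for tRNA charging or 10 for mitochondrial DNA upkeep was called after injury in either subset. At an unadjusted p under 0.05, 2, 0 and 0 of them were higher in CD44high Tregs, against 6.81% of all genes. In CD44low Tregs 5, 2 and 2 were higher, against 14.5%. Lower were 0, 2 and 0 in CD44high Tregs, against 8.33%, and 0, 2 and 0 in CD44low Tregs, against 11.6%. With lists this small, these counts are not read as a result about the lists.

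Because the members are short, they were set beside genes of their own length. Among genes tested in the shortest of 4 equal classes of transcript length, which holds 52 members, the median log2 fold change after injury was 0.23 in members and 0.10 in all genes for CD44high Tregs, and 0.29 against 0.18 for CD44low Tregs. In the class of longest transcripts, which holds 5 members, it was 0.29 against -0.09 and 0.24 against -0.21. With each library's length trend taken out, the members' medians were 0.16 and 0.15, 66 and 62 members were positive, and 1 member (Mrps6) was called higher in CD44high Tregs and 5 higher and 1 lower (Mrpl30) in CD44low Tregs. Without injured CD44high library 2 and injured CD44low library 1_2, the medians were 0.17 and 0.19, with 68 and 65 members positive and 0 and 6 called higher. Values of all genes are not set beside these last fits, and taking out the trend also re-centres each library. How much of the members' values there is a shift of all genes was not tested. The cell-division list lay at 252 to 316 CPM in injured CD44high libraries, below the uninjured ones, and at 14.0 to 34.8 CPM in injured CD44low libraries, and the macrophage and dendritic cell list reached 32.8 to 142 CPM in injured against 19.8 to 38.6 CPM in uninjured CD44low libraries. The neutrophil list summed to 1.06 to 18.96 CPM in injured against 0 to 0.178 CPM in uninjured CD44high libraries, and to 0 to 28.9 against 0 to 1.69 CPM in CD44low libraries. The part of these other genes in the members' values was not tested.

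**Figure D5:**
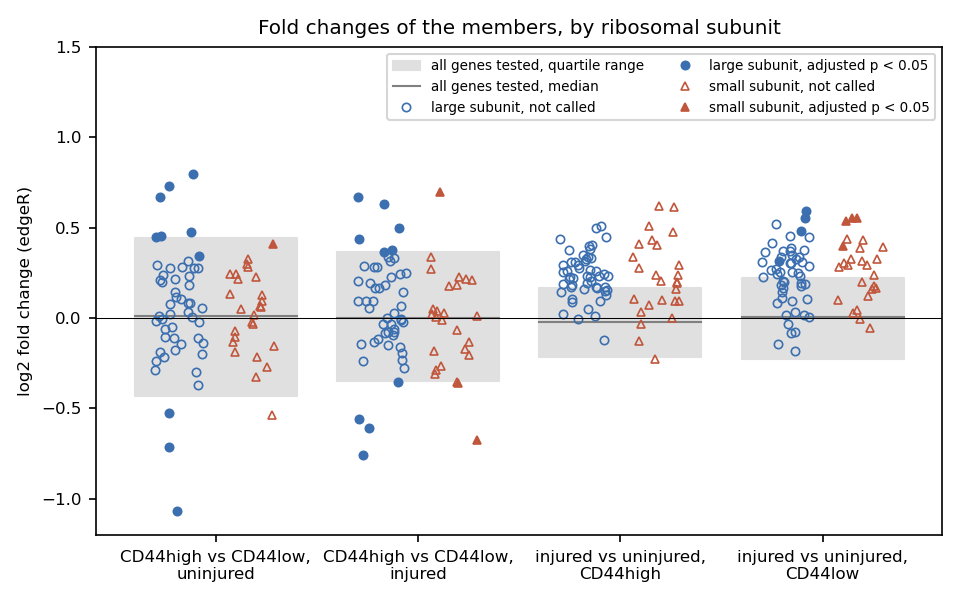
Log2 fold changes of the large-subunit (circles) and small-subunit (triangles) members in the 4 comparisons, filled where the adjusted p was under 0.05, over a grey band for the interquartile range of all genes tested and a grey line for their median. Members scatter around 0 between CD44 subsets and lie mostly above 0 after injury, with medians of 0.23 and 0.27.

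The members were also divided by subunit and by origin. After injury, the median log2 fold change in CD44high Tregs was 0.23 in large-subunit and 0.20 in small-subunit genes, and in CD44low Tregs it was 0.25 and 0.29. Genes shared with bacteria had medians of 0.25 and 0.25, and mitochondria-specific genes 0.22 and 0.29. Of the 8 genes that rose in CD44low Tregs, 7 are shared with bacteria and 1, Mrpl45, is specific to mitochondria. These splits were not tested.

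Some names mislead about place or role. Mrps30 and Mrps18a, though named for the small subunit, lie in the large one, and their log2 fold changes after injury in CD44low Tregs were 0.37 ± 0.13 (SE, adjusted p = 0.0648) and 0.42 ± 0.15 (adjusted p = 0.0785). Of the 3 relatives of bacterial S18, which occupy different places in the particle, Mrps18c rose in CD44low Tregs as given above and Mrps18b gave 0.43 ± 0.14 (SE, adjusted p = 0.0557). In CD44high Tregs, Mrps18a, Mrps18b and Mrps18c gave 0.33 ± 0.17, -0.03 ± 0.16 and 0.41 ± 0.17 (SE), none of them called. Mrpl12, the stalk protein that also binds the mitochondrial RNA polymerase, gave 0.34 ± 0.20 in CD44high and 0.52 ± 0.17 (SE, adjusted p = 0.0577) in CD44low Tregs. Mrps36, now known as a subunit of the 2-oxoglutarate dehydrogenase complex, lay at 1.56 to 4.32 CPM in all libraries, and its changes after injury were 0.30 ± 0.33 in CD44high and 0.32 ± 0.29 (SE) in CD44low Tregs, no larger than about their own errors.

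Reads of overlapping genes could not be told apart, because the library kit is not stated to keep strand. Exons of 23 members overlap those of a protein-coding gene, 12 of them over more than 10% of their length. Among the members named here, 19.9% of Mrps6 exons overlap Gm49711, 15.4% of Mrps24 exons overlap Urgcp, 36.0% of Mrpl19 exons overlap Gcfc2 and 69.8% of Mrps25 exons overlap Nr2c2. Mrpl47 shares 13.9% with Ndufb5 and Mrpl18 shares 10.1% with Tcp1. With genes not annotated as protein-coding, Mrps18b shares 30.5% (the antisense gene Gm16279), Mrps18c 23.2% (Gm43511), Mrpl10 14.1% (Gm11574) and Mrpl12 13.1% (Gm16755). The annotation also holds 6 pseudogene copies named for a member, whose reads the counting may have shared.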

How the data were processed

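RNA of sorted Tregs was turned into cDNA with SMART-Seq v4, sheared to about 150 bases and made into libraries with a Swift 2S kit, and strand is not stated. The deposited values are raw counts per gene that the authors obtained with STAR (version 2.5, after bcl2fastq 2.18, in the VIPER workflow). The submitters' processing notes name builds mm9 and mm10 without their roles. The table also holds 26 rows whose names are dates.

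Counts of all 24982 genes in 19 libraries were filtered (filterByExpr, minimum count 10), scaled by TMM and fitted with edgeR's quasi-likelihood test (edgeR 4.0.16, limma 3.58.1, R 4.3.3) with 1 mean per group. P-values were adjusted by Benjamini-Hochberg over the 11464 genes tested, and calls were made at an adjusted p under 0.05. Fold changes are on the log2 scale, and drawn log2 CPM used a prior count of 2. DESeq2 (version 1.42.0) was an alternative, and the scripts were tested on simulated data. Library totals of 5582234 to 9433610 set the counting precision.

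Libraries were grouped by their GEO labels. The rule for the named members and the lists were chosen with earlier results of these data known. Named members are up to 12 of smallest p among those called in each direction of a comparison, the 2 of smallest p in the interaction where none was called, the 4 highest and 4 lowest per kilobase, the Mrps18 relatives, Mrps30, Mrps36 and Mrpl12. Pathway lists name up to 2 called genes in each direction. Transcript lengths and overlaps came from the GENCODE annotation of GRCm38, which may differ from the authors' annotation, and promoters from RefSeq (GRCm38.p6). A gene's length was that of its longest transcript among those the annotation ranks best as principal. Alternatives covered scaling, the filter, the groups fitted, each library left out, the replicate block and the libraries with a second number. The length trend, thinning to equal totals and the omission of 2 libraries together were added after seeing the data.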

Additional observations from a re-analysis of the deposited data

Results flagged for a closer look

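Single libraries stood far from the rest of their group in 9 of 128 tests. Of these tests, 124 covered 31 named members in the 4 groups of 4 to 6 libraries, and 4 covered the members' share of counts, which gave none of the 9. Chance marks about 5% of such groups. Of the 9, 5 were in library 1_2 of injured CD44low Tregs, always on the high side. Mrpl12 was at 121 CPM there against 62.9 to 77.3 CPM in the other 5 libraries, and Mrpl4 at 119 CPM against 78.03 to 88.8 CPM. Mrpl58 reached 91.4 CPM against 62.5 to 72.8 CPM, Mrps18a 78.3 CPM against 41.4 to 54.5 CPM and Mrps25 62.1 CPM against 38.9 to 47.5 CPM.

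The other 4 were spread over 4 libraries. In uninjured CD44low Tregs, Mrpl10 was at 94.2 CPM in library 5 against 83.3 to 86.3 CPM in the others, Mrpl33 at 43.0 CPM in library 1 against 53.6 to 56.6 CPM, and Mrps18c at 44.7 CPM in library 4 against 32.9 to 36.2 CPM. In injured CD44high Tregs, Mrps6 was at 60.3 CPM in library 4 against 82.9 to 86.2 CPM.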

How the results depend on the processing

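Over 29 alternatives, the 45 results for single members gave 1303 values, of which 1188 kept their direction and side of the threshold, 91 lost a call, 20 gained one and 4 changed sign. The 4 are Mrps18b after injury in CD44high Tregs, at -0.03 as reported and 0.012 with thinned libraries. Without uninjured CD44high library 2 it was 0.011, without uninjured CD44high library 4 it was 0.016 and without injured CD44high library 4 it was 0.0193, in a range of -0.0744 to 0.0193 over the single libraries left out. Counts of members higher after injury in CD44high Tregs, 0 as reported, were 2 with DESeq2, 1 with no filter, 7 with the compared groups alone, 7 without the 3 libraries with a second number, 4 with libraries 1 and 5 summed with 1_2 and 5_2, 1 with the length trend taken out and 1 with thinned libraries. In CD44low Tregs, 8 as reported, they were 19 with DESeq2, 2 with the groups alone and 5 with the length trend taken out, which also gave 1 lower. Between subsets in injured mice, leaving out the 3 libraries gave 11 higher and 3 lower and 1 member in the interaction, and the length trend gave 17 lower. In uninjured mice the length trend gave 5 higher, 20 lower and a median of -0.13, and 6 were lower without injured CD44high 2 and injured CD44low 1_2. Counts given here without a share of all genes describe only how the calls moved with the fit. The cause of these shifts was not tested.

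With 1 library left out at a time, members higher in CD44high Tregs ranged from 5 to 10 and members lower from 3 to 6 in uninjured mice, and from 5 to 15 and 4 to 9 in injured mice. Members higher after injury ranged from 0 to 3 in CD44high and from 3 to 26 in CD44low Tregs, with 0 lower in either and 0 in the interaction in each direction. These ranges stand without the share of all genes, which in CD44low Tregs moved with the library left out, as given above. The medians ranged from 0.02 to 0.08 and from -0.06 to 0.15 between subsets, and from 0.17 to 0.27 and 0.16 to 0.35 after injury.

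With the replicate block, 3 members were lower between subsets in injured mice and 3 were higher after injury in CD44low Tregs, while the other counts stayed within 1.5 times. Of all genes, 15.7% were lower and 1.90% were higher in these respective comparisons. Same-numbered libraries correlated at -0.054 to 0.17 (median 0.082), with 4 of 8 pairs over 0.1, against a median of -0.021 and 5 of 36 over 0.1 for libraries of different numbers. The 8 pairs count 4 with 4_2 and 5 with 5_2 as same-numbered. Same-numbered pairs leaned higher but not every one was over 0.1, so these values do not settle whether they share mice. The main fit used no pairing. Depth limits mainly Mrps36, with as few as 11 counts in a library.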
